A study of Mus musculus with 4 samples.

Results

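The cells described here, labelled early osteoblast-like cells, come from mouse long bone and were chosen by measured RNA from 2 single-cell libraries. A cell counted as a member when it held at least 1 UMI (unique molecular identifier, a tag that marks 1 captured RNA molecule) of 3 or more of the 6 genes Tnn, Ostn, Wnt16, Ptn, Ptprz1 and Omd, at least 2 UMIs each of Postn and of Alpl, and fewer than 3 of the 6 mature osteoblast genes Ifitm5, Dmp1, Col22a1, Slc13a5, Bmp3 and Col11a2. The rule found 659 members among 15670 kept cells. They were 455 of 10063 cells in the young mouse, or 4.52% (95% exact binomial interval 4.12 to 4.95), and 204 of 5607 cells in the old mouse, or 3.64% (3.16 to 4.16). Because these 14 genes selected the members, their levels are given as a description and carry no test.

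Osteoblasts arise from mesenchymal progenitors, lay down an organic matrix that is mostly type I collagen, and mineralise it later. Early in this path they make alkaline phosphatase (Alpl) and matricellular proteins such as periostin (Postn), and only later osteocalcin (Bglap) and the genes of cells buried in bone. Tenascin N (Tnn, also called tenascin W) and periostin are known from the periosteum and from sites of new bone, and osteocrin (Ostn, also called musclin) is a secreted peptide of young osteoblasts and muscle that binds the natriuretic peptide clearance receptor.

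The study looked for skeletal cells that become senescent with age, and followed the surface protein CD24 on them. It took femora and tibiae of INK-ATTAC mice, a line in which a drug-inducible caspase 8 is driven by a fragment of the p16 promoter, and these mice got no inducing drug. One mouse was 6 months old (young) and the other 24 months old (old), so each age is 1 animal and the ages differ by whatever else differed between these 2 animals. Marrow and digested bone were pooled, blood-lineage cells were depleted, and live CD45- cells were sorted, stained with a CD24 antibody that carries a DNA tag and loaded for 3′ single-cell sequencing, so that each cell has an RNA count per gene and a count of antibody tags.

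The deposited matrices held 82675434 RNA UMIs over 11371 barcodes in the young library and 68580402 over 6729 barcodes in the old library. Cells with at least 200 genes and at most 20% mitochondrial UMIs were kept. The median depth was 6385 (young) and 9711 (old) UMIs per kept cell and 8368 and 16204 UMIs per member, so the old members were read more deeply and shares of cells with a UMI are not matched in depth unless thinned. Summed over members, the RNA came to 4490776 UMIs (young) and 3370769 UMIs (old). Predicted doublets made up 24 young members (5.28%) and 4 old members (1.96%). The libraries shared 19 kept barcodes, and no member barcode occurred in both. Levels are given below as CPM, the counts of a gene scaled to the usual fixed total of UMIs, over the summed members of 1 mouse. A 3′ library counts 1 end per transcript, so these levels need no division by length. All intervals cover counting error only, and in such sums fewer cells with a gene and less RNA per cell cannot be told apart.

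The wider marker lists gave osteoblast genes together with genes shared with tendon, cartilage and fibroblasts. Runx2, the master transcription factor of the osteoblast lineage, was found in 87.9% of young and 95.1% of old members, at 329.6 and 312.4 CPM. Sp7 (osterix), which acts after Runx2, stood at 113.1 CPM in the young and 99.98 CPM in the old members. Among mature osteoblast and osteocyte genes, Sost, the osteocyte WNT inhibitor, was at 0 UMIs in both mice and Mepe at 0.668 and 0.593 CPM. The 15 genes of the mature osteoblast and osteocyte list still summed to 9230 CPM in the young and 13519 CPM in the old members. Bglap was found in 87.7% of young and 85.3% of old members, and Bglap2 in 93.4% and 91.7%. By these shares most members also held osteocalcin, a gene of later stages than the name early gives. Of the endothelial list, Cdh5, Tie1, Flt1 and Cldn5 were at 0 UMIs in both mice, and its 10 genes summed to 8.02 CPM in the young and 11.6 CPM in the old members. Of the cartilage list, the defining collagen Col2a1 stood at 2.90 and 2.37 CPM and Matn1 was at 0 UMIs in both, but its 12 genes summed to 1862 and 3035 CPM, most of it Comp (1465 and 2552 CPM) and the proteoglycan Acan (234.3 and 326.9 CPM, in 57.8% and 79.9% of members). Of the Schwann cell list, Sox10 was at 0 UMIs in both, and its 7 genes summed to 402.8 and 294.0 CPM, most of it the adhesion molecule Ncam1. Lepr and Adipoq, which mark reticular cells of the marrow stroma, reached 52.1 and 43.7 CPM in the young and 43.3 and 35.3 CPM in the old members, and 15 young and 5 old members also met the stromal rule of 2 or more UMIs each of Lepr, Adipoq and Cxcl12. The 11 genes of the tendon and ligament list summed to 3878 and 4575 CPM, most of it the early response gene Egr1 and Fmod, while the tendon regulator Scx stood at 40.97 and 51.03 CPM and Tnmd at 13.4 and 39.2 CPM. The 14 genes of the fibroblast and periosteum list summed to 2866 and 3278 CPM. Of these, Dpt stood at 139.8 and 219.2 CPM, Ly6a at 175.0 and 198.2 CPM and Pi16 at 9.58 and 2.67 CPM. The 10 pericyte and smooth muscle genes summed to 628.8 and 576.7 CPM, most of it Acta2 (383.5 and 375.9 CPM).

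At the edge of the rule the cells changed by degrees. In the young mouse, cells that met all other conditions but had only 2 of the 6 genes numbered 69 and held 2510 CPM of Postn, while the 140 members with 3 of the 6 held 2557 CPM. The old mouse had 34 such cells just outside at 1125 CPM and 73 members just inside at 2299 CPM. Postn went on rising with the number of the 6 genes found, to 10222 CPM in the 72 young and 7421 CPM in the 11 old members that held all 6. Col1a1, the type I collagen chain that the rule did not use, stood at 21352 CPM just outside and 23777 CPM just inside in the young mouse, against 14081 and 23719 CPM in the old. Median depth rose along the same steps, from 7550 UMIs at 3 genes to 9880 at 6 in the young and from 15059 to 17188 in the old members, and its part in the steps was not tested. On the mature side, 412 young and 169 old members had none of the 6 mature genes, and 8 in each mouse had 2.

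Among the secreted factors of the rule, osteocrin was the most unevenly spread. Ostn stood at 169.2 CPM (157.4 to 181.7) in the young and 129.3 CPM (117.5 to 142.1) in the old members. It was found in 29.9% of young and 18.1% of old members, and 1 old member alone held 126 UMIs. After each cell was thinned to 5000 UMIs, which leaves 363 young and 198 old members, the shares were 28.7% (24.1 to 33.6) and 16.2% (11.3 to 22.0). B-lineage cells of the same libraries (2 or more UMIs of Cd79a and of Cd79b), which should lack the gene, held it in 0 of 321 and 0 of 47 cells at median depths of 5594 and 8425 UMIs. Of the receptors of the natriuretic peptide system, the members held mainly the signalling receptor Npr2, at 24.3 and 27.9 CPM, while the clearance receptor Npr3 stood at 1.56 and 0.890 CPM.

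Wnt16, a WNT ligand that osteoblasts make in cortical bone, stood at 237.6 CPM (223.6 to 252.3) in young and 122.5 CPM (111.0 to 134.9) in old members. Its share of members with a UMI was 57.1% and 47.1%, beside 0.623% and 0% of B-lineage cells. Pleiotrophin (Ptn), a heparin-binding growth factor, stood at 1836 CPM in young and 1099 CPM in old members and was found in 78.0% and 74.0% of them, beside 1.87% and 2.13% of B-lineage cells. Ptprz1, the receptor tyrosine phosphatase that pleiotrophin binds, stood at 376.3 and 243.6 CPM and was found in 76.9% and 73.5%. The related ligand midkine (Mdk) reached 208.6 and 162.0 CPM, and the co-receptor syndecan 3 (Sdc3) 174.1 and 159.3 CPM.

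Of the matrix proteins of the rule, Tnn stood at 1402 CPM (1368 to 1437) in the young and 1286 CPM (1248 to 1325) in the old members, and 94.5% and 96.1% of members held it against 1.87% and 0% of B-lineage cells. Postn stood at 6356 CPM (6283 to 6430) and 4039 CPM (3971 to 4107). Osteomodulin (Omd), a keratan sulfate proteoglycan that binds hydroxyapatite, was at 900.1 and 885.6 CPM. Alpl, the enzyme that frees phosphate for mineral, was at 874.2 CPM (847.1 to 902.0) and 882.9 CPM (851.4 to 915.2), and these intervals overlap. Tnn, Omd and Alpl thus lay close together in the 2 animals, while Postn, Ptn, Ptprz1, Wnt16 and Ostn were lower in the old one. Raw UMIs of these genes chose the members, and the old members were read more deeply. The part of depth in these differences was not tested.

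**Figure D1:**
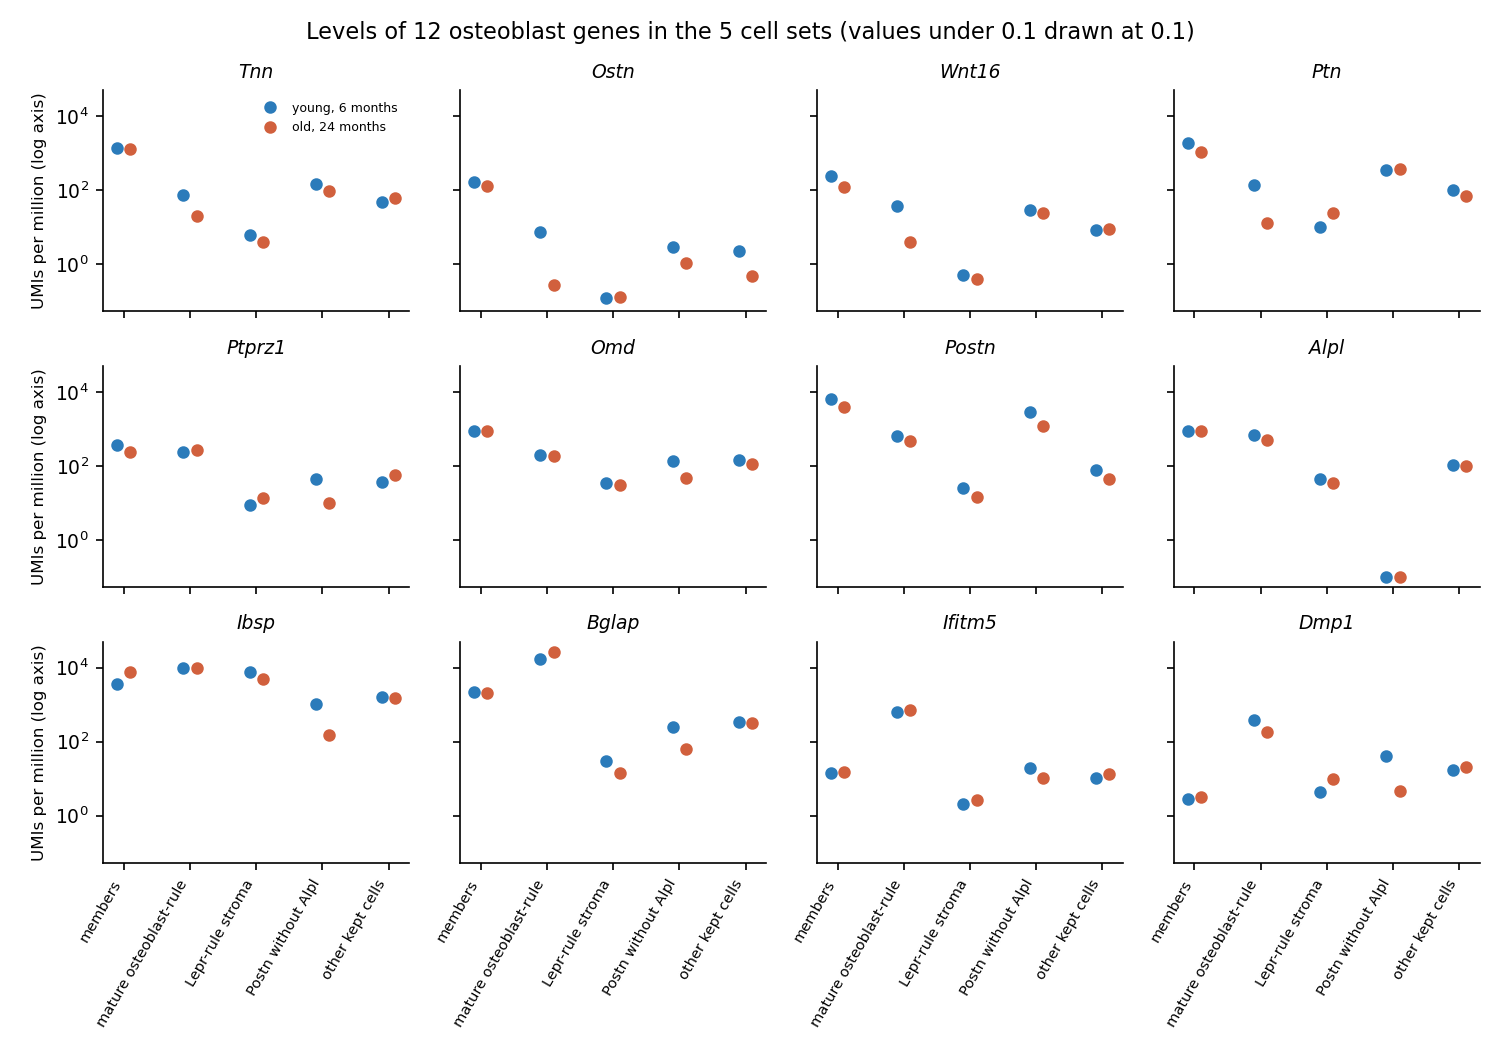
Levels of 12 osteoblast genes (CPM, log axis) in 5 sets of cells, with 1 point per mouse: members, mature osteoblast-rule cells, Lepr-rule stromal cells, Postn cells without Alpl, and all other kept cells; there are no replicates within an age and no error bars. Tnn, Ostn and Wnt16 are highest in members of both mice, Bglap, Ifitm5 and Dmp1 in mature osteoblast-rule cells, and Alpl is 0 by rule in the Postn cells without Alpl.

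Matrix genes that the rule did not use took a large part of the members' RNA. The 34 genes of the osteoblast matrix list, which include 3 rule genes, summed to 133838 CPM in young and 134295 CPM in old members. Col1a1 stood at 28687 and 27776 CPM and Col1a2 at 20833 and 21499 CPM. Col3a1, the fibril collagen of loose connective tissue, stood at 15872 CPM in young and 18436 CPM in old members, and was found in all young and 99.5% of old members. The small leucine-rich proteoglycans, which bind collagen fibrils, were prominent: lumican (Lum) at 7549 and 7101 CPM, asporin (Aspn) at 4696 and 3947 CPM, and fibromodulin (Fmod) at 1471 and 2196 CPM. Thrombospondin 2 (Thbs2), a matricellular protein, was at 1122 and 765.4 CPM.

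Genes of mineral formation were uneven across members. Ibsp (bone sialoprotein, a mineral-binding matrix protein) had a median of 10 UMIs and a highest value of 836 UMIs per young member, and a median of 38.5 and a highest value of 3519 UMIs per old member. It was found in 78.7% of young and 81.9% of old members, beside 15.6% and 14.9% of B-lineage cells. Osteopontin (Spp1) was found in 273 young and 122 old members (59.8% of the old), beside 27.4% and 42.6% of B-lineage cells, and 1 old member held 2430 of the 6510 Spp1 UMIs of its mouse. Bglap stood at 2160 and 2071 CPM and its near-identical neighbour Bglap2 at 3029 and 2992 CPM. Reads that match both copies may have been lost or split between them in counting, so their separate levels are uncertain. Mmp13, the collagenase of osteoblasts and hypertrophic cartilage, was at 2503 and 2821 CPM. The phosphatase Phospho1, which acts in matrix vesicles, was nearly absent at 0.223 and 0.593 CPM.

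Among 51 WNT pathway genes, the secretion factor Wls stood at 309.3 and 338.5 CPM and the non-canonical ligand Wnt5a at 132.3 and 160.2 CPM. The secreted modulator Dkk3 was at 287.0 and 239.1 CPM, while the classical inhibitor Dkk1 had 0.223 and 0 CPM. Pth1r, the receptor of parathyroid hormone, was at 490.8 and 488.6 CPM. For osteoclast control, Tnfsf11 (RANKL, which drives osteoclast formation) stood at 33.2 CPM in young and 55.5 CPM in old members, and Tnfrsf11b (osteoprotegerin, its decoy receptor) at 16.3 and 19.3 CPM. Of the arrest genes the study is about, Cdkn1a (p21) was found in 58.2% of young and 56.4% of old members, beside 24.9% and 23.4% of B-lineage cells. Cdkn2a, whose counts cannot separate p16 from p19Arf, was found in 9 young members (1.98%, 0.908 to 3.72) and 12 old members (5.88%, 3.08 to 10.1), beside 1.56% and 4.26% of B-lineage cells. These intervals hold the B-lineage shares, and the old B-lineage share rests on 2 of 47 cells. B-lineage cells were not shown to lack Cdkn2a, so they set no background for it, and expression above background was not tested. The highest Cdkn2a count of any single member was 6 for the young mouse and 10 for the old one.

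Mature osteoblast-rule cells were taken for comparison: 112 young and 155 old cells with 3 or more of the 6 mature genes and 2 or more UMIs each of Alpl and Ibsp. Which set is most like the members was not measured. Measured RNA chose both sets, so the differences are descriptions. A gene counted when log2 of (CPM + 5) differed by 1 or more with the same sign in both mice, and 657 of 11631 genes (5.65%) were higher in members and 249 (2.14%) lower. Aspn had 4696 CPM in young members against 123.9 CPM in young mature cells and 3947 against 30.3 CPM in the old, log2 differences of 5.19 and 6.81. Col3a1 was higher in members by 4.20 and 5.86, Fmod by 4.41 and 5.83 and Thbs2 by 4.21 and 4.29 on the same scale. In Postn cells without Alpl these genes lay between members and mature cells. Col3a1 stood there at 8852 and 13130 CPM and Aspn at 1547 and 2098 CPM. Fmod stood there at 333.2 and 247.2 CPM and Thbs2 at 194.5 and 236.2 CPM. Among the 10 highest were also Tnn and Ptn of the rule, and outside the lists Crispld2, Angptl2, Pdzrn4 and Edil3, the last a secreted integrin ligand.

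The opposite end held the mature genes of the rule and others. Car3, a carbonic anhydrase, stood at 4.01 CPM in young members against 1608 CPM in young mature cells and at 3.86 against 1985 CPM in the old. Col11a2, Col22a1, Ifitm5, Bmp3 and Slc13a5 of the rule were among the 10 lowest, together with Cyfip2, Lipc, Limch1 and Enpp6. Osteocalcin was lower in members, with Bglap log2 differences of -2.95 and -3.68, as was Spp1 with -4.15 and -2.36. Thinned to 5000 UMIs, Bglap was still found in 80.99% of young and 74.75% of old members, against 86.17% and 91.72% of mature cells. Genes used by either rule were left out of the list counts, since the rules set their direction. Over all genes, 5.65% were higher in members and 2.14% lower. Of the other 31 matrix genes 14 were higher in members and 2 lower (Col11a1 and the lysyl hydroxylase Plod2). Of the other 15 mineralisation genes 1 was higher (Mgp, matrix Gla protein, an inhibitor of mineralisation) and 9 were lower. Of the other 38 WNT pathway genes 10 were higher, among them Wnt5a, Wnt5b, Sfrp2 and Dkk3, and 6 were lower, among them Wnt4, Dkk1, Notum and Wif1. The cell cycle inhibitor Cdkn1c (p57) was higher in members, at 326.2 against 49.3 CPM in the young and 226.4 against 21.4 CPM in the old. The mature cells were read more deeply than members, with median UMIs of 10218 in the young and 21223 in the old, and its part in these differences was not tested.

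Wnt16 was the gene whose level over 10 sums (5 cell sets in each of 2 mice) most resembled the summed level of Tnn and Ostn, with a Pearson r of 0.977 on the log2 (CPM + 1) scale. Lrrc42 (0.977), Ephb3 (0.975), Dlg2 (0.974), Chn2 (0.969) and Lum (0.968) came next, followed by Reep5, Serinc5, Retreg1 and Zfhx3. Lum stood at 7549 and 7101 CPM in members against 1080 and 918.5 CPM in mature cells and 319.7 and 511.0 CPM in Lepr-rule stromal cells. The sums share 2 libraries, and Wnt16 and Tnn helped choose the cells.

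Within the members, several matrix genes varied together. Rank correlations were taken over 363 young and 198 old members thinned to 5000 UMIs. They are descriptions over cells of 1 library each. Postn and Tnn went together (Spearman rho 0.68 in young and 0.51 in old members), as did Tnn and Col1a1 (0.69 and 0.50), Col1a1 and Col3a1 (0.70 and 0.57) and Ptn and Aspn (0.63 and 0.56). Bglap and Bglap2, which share sequence, gave 0.77 and 0.85. Comp, a cartilage and tendon matrix protein, went against Postn (-0.45 and -0.38), and so did Mgp (-0.39 and -0.34). Members with much Ptn held little Ibsp (-0.44 and -0.48), and Ibsp went with Mmp13 (0.27 and 0.49). Postn and Alpl, both required by the rule, were nearly unrelated (0.015 and 0.11). Some relations differed between mice: Spp1 and Col3a1 gave -0.49 in young and -0.10 in old members, and Igf1 and Ibsp -0.21 in young and -0.48 in old.

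**Figure D2:**
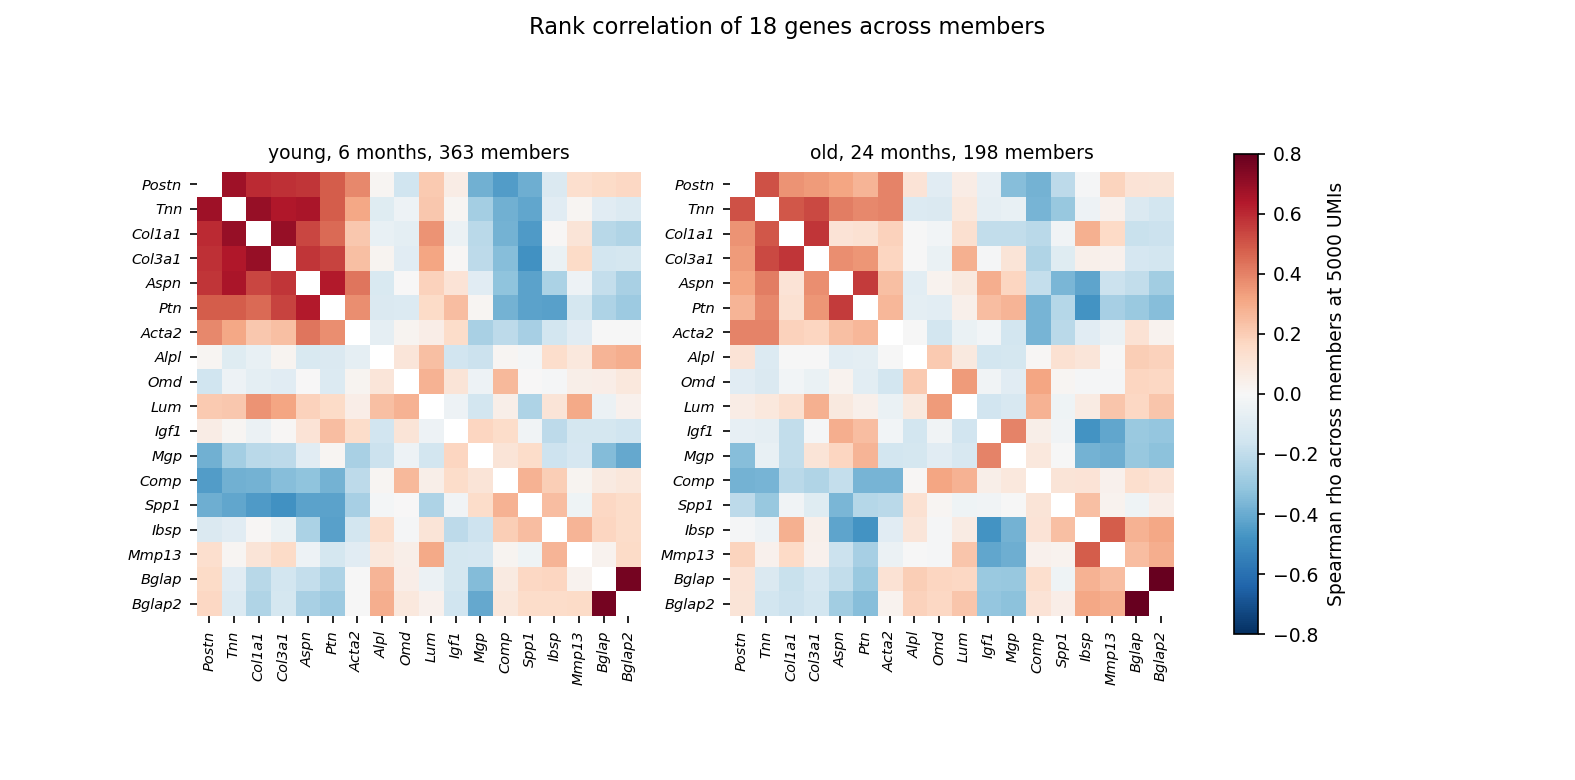
Spearman rank correlation between 18 genes over members thinned to 5000 UMIs, 363 members in the left and 198 in the right panel; red is positive, blue negative and the diagonal is left white. Postn, Tnn, Col1a1, Col3a1, Aspn, Ptn and Acta2 form a block of positive values in both mice, while Comp, Spp1 and Mgp lie mostly below 0 against them.

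CD24 was read from the antibody tag, which the rule did not use. A cell was called CD24+ above the Otsu threshold of its library, 318.7 antibody UMIs for the young and 404.1 for the old mouse. Of the members, 156 (34.3%, 29.9 to 38.9) were CD24+ in the young and 47 (23.0%, 17.5 to 29.4) in the old mouse. Mature osteoblast-rule cells were CD24+ in 22.3% (15.0 to 31.2) and 11.6% (7.03 to 17.7), Lepr-rule stromal cells in 4.98% (4.13 to 5.94) and 3.29% (2.46 to 4.30), and Postn cells without Alpl in 9.16% (7.06 to 11.6) and 3.92% (2.30 to 6.20). The members' intervals lay above those of the stromal and the Postn sets in both mice and overlapped with those of the mature cells in both. B-lineage cells, which carry CD24, were CD24+ in 99.4% and 95.7%.

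The antibody count of members had a median of 206 (quartiles 112 and 412) in the young and 184 (113.8 and 367.5) in the old mouse, against 90 and 87 in Lepr-rule stromal cells. Of young members 125 (27.5%) and of old members 49 (24.0%) lay within 1.5-fold of the threshold. The shape of the distribution was not tested. Antibody counts followed RNA depth with a rank correlation of 0.37 over young members and 0.078 over old ones. Scaled to RNA depth, the median was 25.9 antibody UMIs per 1000 RNA UMIs in young and 12.7 in old members, against 16.5 and 7.27 in mature cells and 15.8 and 14.6 in all other kept cells. With the threshold set on that scale, 24.2% of young and 17.7% of old members were CD24+. Mature cells were CD24+ in 15.2% and 7.10%, Lepr-rule stromal cells in 5.67% and 6.51%, and Postn cells without Alpl in 10.8% and 7.60%. The mixed remainder of all other kept cells was CD24+ in 22.3% and 32.9%. On that scale the old members thus stood above the mature, stromal and Postn sets and below all other kept cells. Transcripts of Cd24a itself were sparse, at 23.2 CPM in young and 12.5 CPM in old members.

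**Figure D3:**
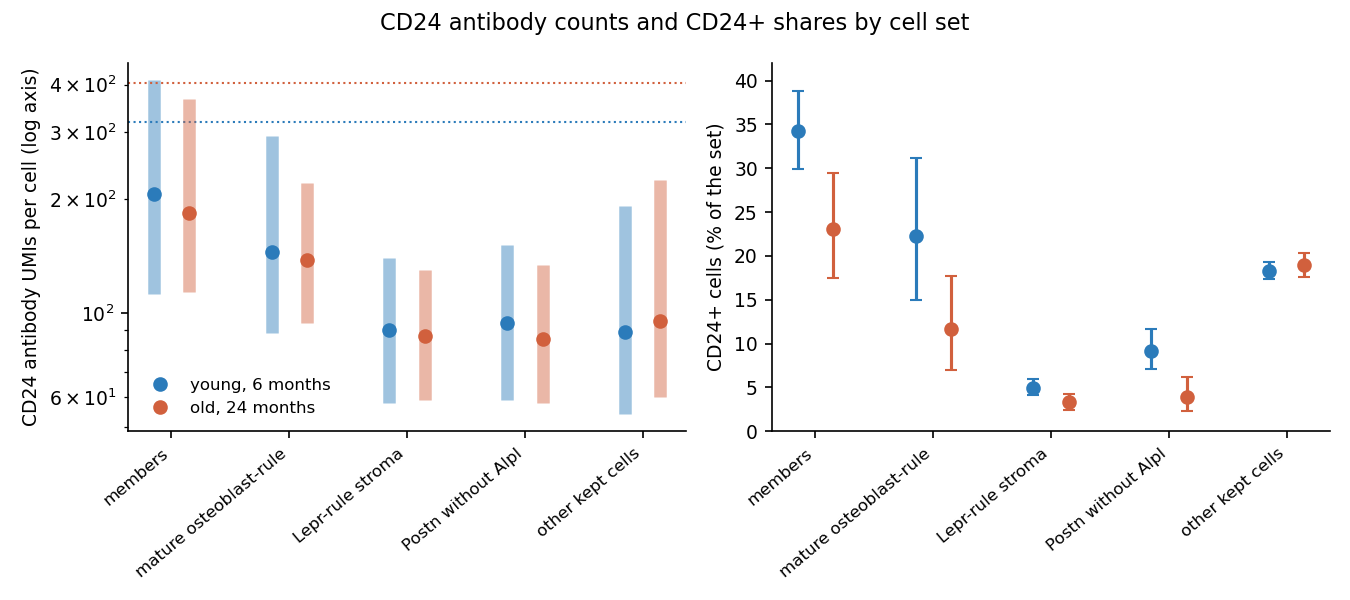
Left, CD24 antibody UMIs per cell (log axis) by cell set, with points at the median, bars from the lower to the upper quartile and dotted lines at the threshold of each library; right, the share of CD24+ cells in each set with its 95% exact binomial interval. On this unscaled count, members of both mice have the highest median and the highest share of the 5 sets drawn. Per 1000 RNA UMIs, old members stand below all other kept cells and above the mature, Lepr-rule and Postn sets.

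CD24+ and CD24- members were compared over 4 sums of raw counts, both states in each of the 2 mice, with edgeR's quasi-likelihood test and the mouse as a block. The mice are the replicates, which leaves 1 residual degree of freedom, and the spread of each gene is therefore estimated largely from other genes. Of 10580 genes tested, 103 (0.974%) passed at an adjusted p of 0.05. In CD24+ members 68 of them (0.643%) were higher and 35 (0.331%) were lower. The rises include Postn and Tnn, which the rule used. At an unadjusted p of 0.05, 671 genes passed. The 10 largest rises were mostly genes of red blood cell precursors. Hbb-bs, a beta-globin, stood at 436.8 CPM in CD24+ and 20.1 CPM in CD24- young members and at 1514 and 33.1 CPM in the old (log2 difference 5.11, SE 0.20, adjusted p = 2.66e-12). The rest of the 10 were Rhag, Slc4a1, Car2, Hbb-bt, Tspo2, Gata1, Hba-a1, Abcb4 and Ctse. Of 9 tested erythroid genes 8 rose.

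These rises sat in few cells. In the young mouse 10 CD24+ members and 1 CD24- member held 10 or more UMIs of the 10 erythroid genes listed, and in the old mouse 3 CD24+ members and 0 CD24- members did. One old member alone held 2332 of the 2506 erythroid UMIs of the old CD24+ members. Predicted doublets were 10.3% of young CD24+ and 2.68% of young CD24- members, and 2.13% and 1.91% in the old. Without the members that hold 10 or more erythroid UMIs, an alternative chosen after seeing the data, 50 genes passed (20 higher, 30 lower) and no erythroid gene did. Of the 103 genes, 48 (46.6%) passed both ways, which is 96.0% of the 50. Cd24a rose in all members, from 4.72 to 47.2 CPM in the young and from 3.80 to 43.2 CPM in the old (log2 difference 3.42, SE 0.33, adjusted p = 4.45e-06), and without those members its difference was 1.65 and did not pass (adjusted p = 0.198). Of 17 tested proliferation genes 5 rose in all members (Hmgb2, Birc5, Stmn1, Mki67 and Rrm2) and 0 without those members.

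Of the matrix genes that took no part in the rule, 4 of 31 tested rose and 0 fell: Col11a1, Thbs2, Col12a1 and the collagen crosslinking enzyme Loxl2. Over all genes tested, 0.643% rose and 0.331% fell. Col11a1, a minor fibril collagen, stood at 957.2 CPM in CD24+ against 509.8 CPM in CD24- young members and at 716.0 against 467.5 CPM in the old (log2 difference 0.80, SE 0.12, adjusted p = 0.00103). Fibin, a secreted protein, rose by 0.99, the membrane protein Lrrc15 by 0.74, Thbs2 by 0.54, Col12a1 by 0.47 and the smooth muscle actin Acta2 by 0.60 on the log2 scale. With DESeq2, Col11a1 passed and Thbs2, Col12a1, Loxl2, Fibin, Lrrc15 and Acta2 did not.

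Rule genes are given without a test, although the counts of genes called above include Postn and Tnn. Postn stood at 8182 CPM in CD24+ against 4954 CPM in CD24- young members and at 6045 against 3473 CPM in the old. Over 4 bins of near equal size by antibody count its level was 3965, 5183, 6740 and 8059 CPM in young members, from the lowest bin to the highest. In old members it was 3128, 2920, 4416 and 5680 CPM. Tnn stood at 1720 against 1158 CPM in the young and 1517 against 1221 CPM in the old, so both matrix genes were higher in CD24+ members of each mouse. Ostn stood at 120.5 against 206.7 CPM in the young and 161.8 against 120.2 CPM in the old, in opposite directions.

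CD24+ young members were also read more deeply, with a median of 10410 UMIs against 7355 in CD24- members (16335 against 15933 in the old). When members were split at the median antibody count within 4 bins of RNA depth, an alternative chosen after seeing the data that balances the medians at 8312 against 8383 and 16272 against 15869, Col11a1 (0.92), Fibin (1.00) and Lrrc15 (0.73) passed. When members were split by antibody count per 1000 RNA UMIs, which turns the depth around to 7114 against 8690 in the young and 11707 against 16858 in the old, none of the 3 passed: Col11a1 was at 0.43 (adjusted p = 0.0534), Fibin at 0.23 and Lrrc15 at -0.082. Whether these 3 genes passed thus differed between the splits, which also set depth differently, and the part of depth was not tested. The difference in Postn, untested, was 0.88 in the first split and 0.36 in the second, and that in Tnn was 0.55 and 0.068.

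Of the 30 genes that fell both ways, several encode secreted growth and mineral regulators. Igf1, the growth factor that acts on osteoblasts locally, stood at 143.6 CPM in CD24+ against 273.2 CPM in CD24- young members and at 161.8 against 390.2 CPM in the old (log2 difference -1.05, SE 0.14, adjusted p = 0.000229). Mgp stood at 625.5 against 923.5 CPM in the young and 585.2 against 1686 CPM in the old (-0.99, SE 0.16, adjusted p = 0.00169). Spp1 stood at 848.5 against 1223 CPM and 372.2 against 2371 CPM (-1.50, SE 0.28, adjusted p = 0.00743), and 1 cell held 39.0% of the Spp1 UMIs of the old CD24- members. Inhba, an activin subunit, fell by 1.03, Cxcl14 by 1.19, Mt2 by 1.07 and the WNT modulator Sfrp4 by 0.93 on the log2 scale. With DESeq2, Igf1 passed, and Mgp, Spp1, Inhba, Cxcl14, Mt2 and Sfrp4 did not. Split by antibody per 1000 RNA UMIs, Spp1 (-1.06), Mgp (-1.39) and Inhba (-1.42) passed and Igf1 (-0.44) did not. Split at the median antibody count, Mgp was at -0.24 and did not pass.

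The largest falls rested on few cells. Angptl7 was held by 2 CD24+ and 9 CD24- young members and by 0 and 5 old ones, and 1 old member held 123 of the 134 UMIs in its group. Slpi was held by 1 and 3 young and 1 and 14 old members, Npy by 2 and 7 and by 1 and 8, and Myoc by 11 and 19 and by 2 and 9. Angptl7 and Myoc turned their sign when members were split at the median antibody count, to 0.84 and 1.08. Ndufa4l2, a mitochondrial subunit of hypoxic cells, was held more widely, by 20 of 156 CD24+ and 60 of 299 CD24- young members and by 16 of 47 and 69 of 157 old ones. It had 82 UMIs in CD24+ against 455 in CD24- young members and 56 against 368 in the old (-1.54, SE 0.21, adjusted p = 0.00051).

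**Figure D4:**
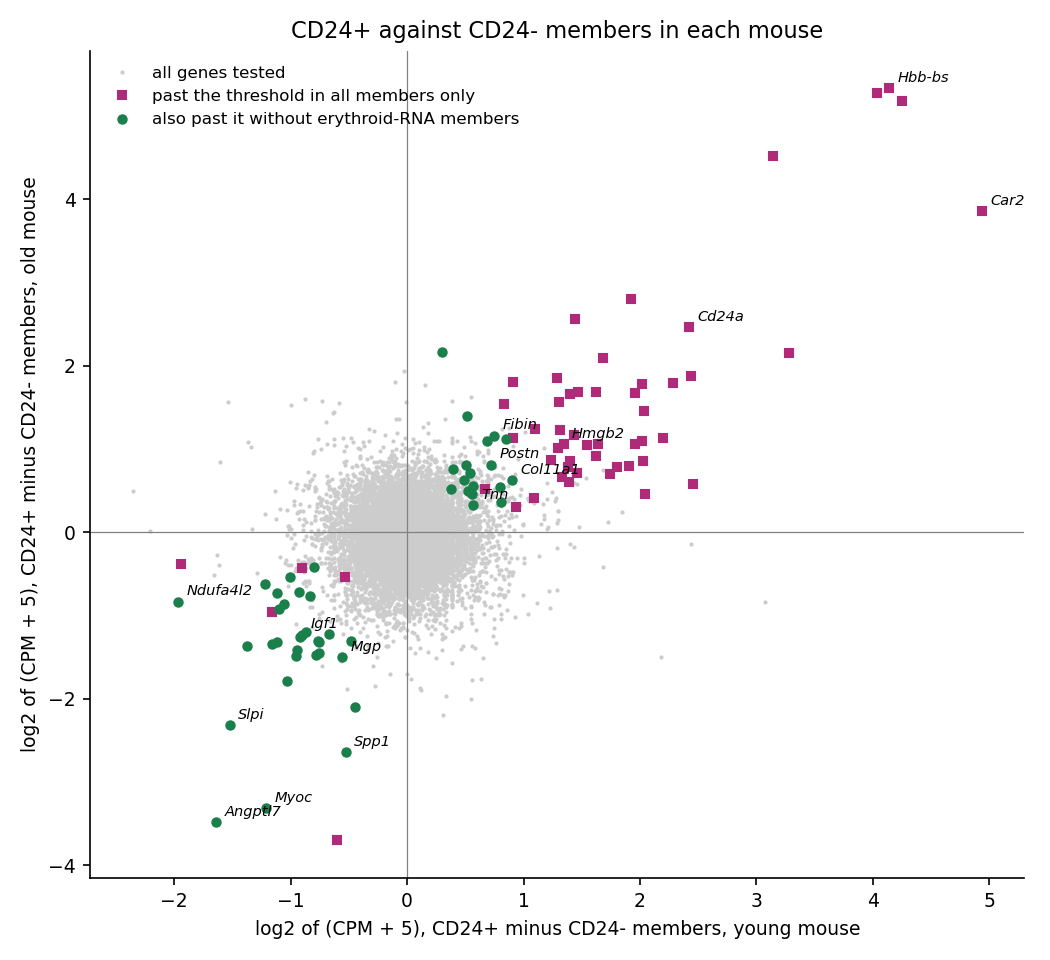
Difference in log2 of (CPM + 5) between CD24+ and CD24- members in the young mouse (x axis) and the old mouse (y axis), 1 point per gene, with grey for all genes tested, purple squares for genes past an adjusted p of 0.05 in all members only and green circles for the 48 genes also past it without the members that hold erythroid RNA. The globin genes and Car2 lie at the far upper right, and Postn, Fibin, Col11a1 and Tnn lie nearer to 0 in both mice. Postn and Tnn are among the green circles, but the rule used them and their calls are not read as a test.

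With 0.974% of all genes called, a list of this size holds fewer than 1 call on average, so the counts of 0 below say nothing particular to a list. None of 25 tested osteoblast transcription factors, 23 genes of cell cycle arrest and survival, 26 secretory machinery genes, or 9 osteoclast control genes passed. Runx2 stood at 312.2 CPM in CD24+ against 342.9 CPM in CD24- young members and 331.7 against 306.9 CPM in the old. For Cdkn1a the values were 301.0 against 227.1 CPM in the young and 118.7 against 184.9 CPM in the old, which lie in opposite directions. Of 33 tested WNT genes outside the rule Dkk3 rose and Sfrp4 fell. Of 22 genes of the secretory phenotype 0 rose and 3 fell (Igfbp7, Spp1 and Icam1), and of 47 growth factors and receptors outside the rule 1 rose (Angptl2) and 4 fell (Igf1, Igfbp7, Inhba and Cxcl14).

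Old and young members were set side by side without a test, since each age is 1 mouse. A gene counted when log2 of (CPM + 5) differed by 1 or more, among 10736 genes with at least 30 UMIs in the 2 sums together. In the old members 57 genes (0.531%) were higher and 52 (0.484%) lower. Many of these rest on single cells: without the member that holds most UMIs of the gene in the higher mouse, an alternative chosen after seeing the data, 22 of the 57 and 36 of the 52 kept that size. None of the 6 label markers reached this size: the log2 differences were -0.12 for Tnn, -0.38 for Ostn, -0.65 for Postn, 0.014 for Alpl, -0.93 for Wnt16 and -0.74 for Ptn. Postn was lower by about the same amount in all other cells (-0.63), while Ptn differed by -0.23 and Wnt16 by -0.050 there.

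Ecm1, an extracellular matrix protein, stood at 234.5 CPM in young and 583.0 CPM in old members (1.30, and 1.24 without its top cell) and was found in 44.6% and 78.4% of them. The chemokine Cxcl14 stood at 163.4 and 426.6 CPM (1.36, and 1.19 without its top cell). Pttg1 (securin, a regulator of chromosome separation) had 47 UMIs in young and 149 in old members (1.67, and 0.76 in non-members) and was found in 8.13% of young and 52.9% of old members. These 3 genes kept the size without their top cell.

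Ibsp stood at 3615 CPM (3560 to 3671) in young and 7756 CPM (7663 to 7851) in old members, a log2 difference of 1.10, while the difference was -0.076 in mature cells and -0.15 over all non-members. One old member held 13.5% of the old Ibsp UMIs, and without it the difference was 0.90, under the size. Ank, which exports pyrophosphate, stood at 45.9 and 100.6 CPM (1.05, and 0.84 without its top cell). The matrix metalloproteinase Mmp3 stood at 103.3 and 249.2 CPM (1.23, and 0.97 without its top cell). Of 10 tendon and ligament genes 4 were higher in old members (Tnmd, Kera, Col14a1 and Cilp), where 0.531% of all genes were. The list median was 0.75 against -0.0007 over all genes. Without the top cell Tnmd (1.08) and Kera (1.78) kept the size, and Col14a1 (0.92) and Cilp (0.31) did not. Cilp had 57.8% of its old UMIs in 1 cell. Kera was found in 1.10% of young and 7.35% of old members, and Tnmd in 2.86% and 10.3%.

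Some of the largest differences were shared with the rest of the library. Igkc, an immunoglobulin light chain that osteoblasts do not make, was held as 3 UMIs in young members and 134 in old ones, 0.668 and 39.8 CPM. Among non-members it stood at 41.9 CPM in the young and 5834 CPM in the old library. Ighm (1.11 and 25.5 CPM) and Iglc1 (0 and 15.1 CPM) were higher in old members too, and S100a9, a neutrophil gene, stood at 6.68 and 24.6 CPM in members and 1261 and 3605 CPM in non-members. The part of RNA from other cells in the members' values was not tested. At the other end Gm8797 had 206.6 CPM in young and 8.31 CPM in old members (log2 difference -3.99) and a difference of -3.56 in non-members, AA465934 had 39.6 and 0.593 CPM (-3.00, and -2.78 in non-members), and Gm47283 -1.72 and -2.09.

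Other genes were lower in old members without a change of that size in the rest. Luzp2 stood at 27.8 CPM in young and 2.97 CPM in old members (-2.04) and was nearly absent from non-members, at 0.183 and 0.0632 CPM. Grem1 (gremlin 1, a secreted BMP inhibitor) stood at 57.9 and 15.4 CPM (-1.62), with -0.23 in non-members, and was found in 22.9% of young and 7.35% of old members. Pdgfd, a platelet-derived growth factor, stood at 62.1 and 24.0 CPM (-1.21), with 0.28 in non-members. Nrk, Adra1b, Gm3336 and Bicd1 followed, with differences between -1.33 and -1.49, and Ccdc152 (-1.35) was also lower in non-members (-1.50). Of the 109 genes past the size in either direction, 12 differed by as much with the same sign over all non-members and 37 had the opposite sign there.

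Of 23 genes of cell cycle arrest and survival 0 differed by 1 or more, where 0.531% and 0.484% of all genes did, so this count says nothing particular to the list. Cdkn1a stood at 259.2 CPM in young and 170.3 CPM in old members. Cdkn2a stood at 4.01 CPM (2.38 to 6.34) and 11.9 CPM (8.48 to 16.2), on 18 and 40 UMIs (log2 difference 0.90), with 0.98 over non-members. Of 23 secretory phenotype genes, Mmp3 was higher and Ccl2 and Ccl7 were lower in old members, the last 2 with 66.3% and 52.0% of the UMIs of the higher mouse in 1 cell. Without the top cell none of the 3 kept the size.

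**Figure D5:**
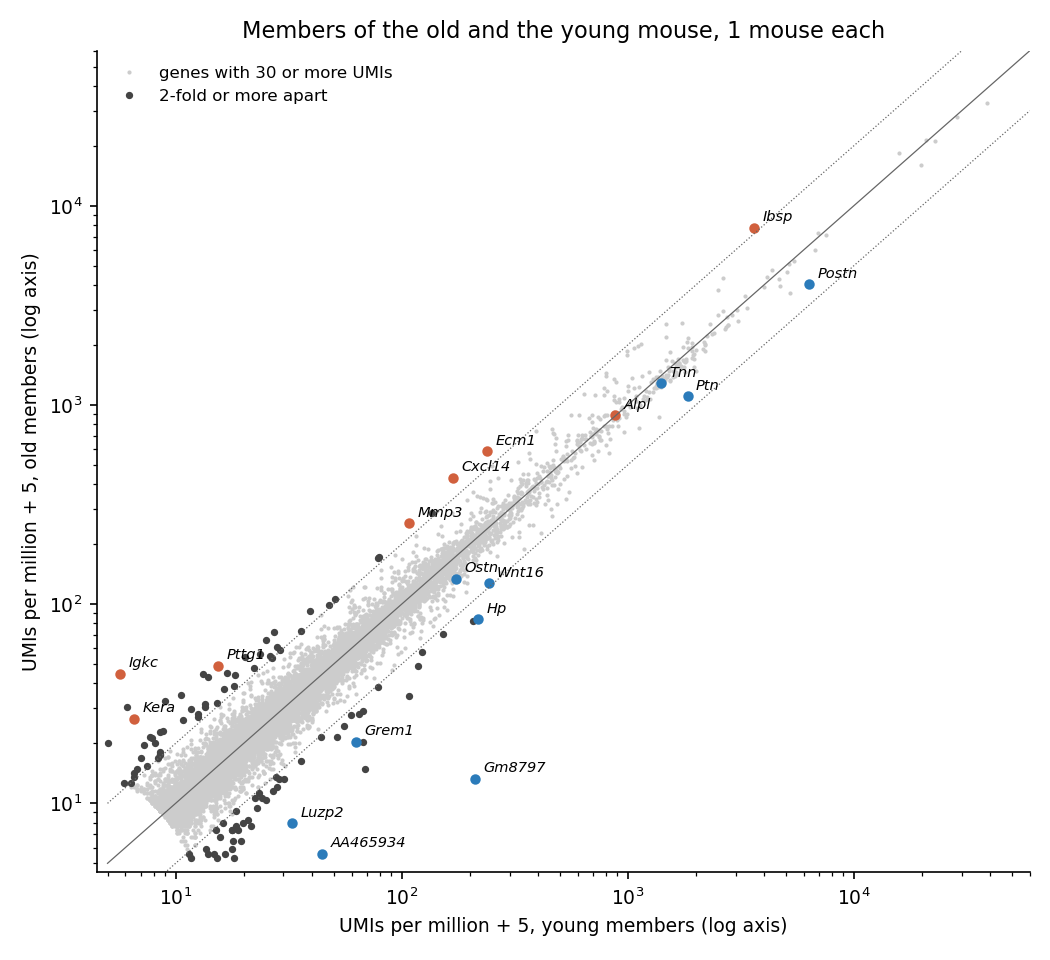
Summed level of each gene (CPM + 5, both axes log) in young members (x axis) and old members (y axis), 1 mouse each, with no error bars; the solid line marks equal levels, dotted lines mark a 2-fold difference, dark points lie past it and coloured points are named genes (orange higher, blue lower in old). Ibsp, Ecm1 and Cxcl14 lie above the upper dotted line, Gm8797, AA465934 and Luzp2 far below the lower one, and Tnn and Alpl near the line of equal levels.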

How the data were processed

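CITE-seq of sorted bone cells from 1 young and 1 old mouse gave RNA and CD24 antibody libraries. The deposited counts are raw UMI counts per gene and cell, made by the authors with Cell Ranger (6.1.1 per the file headers; mm10, R 4.0.3 and Seurat 4.0 per the submitters' processing notes); the annotation release was not given in the sources used here. Cells with at least 200 genes and at most 20% mitochondrial UMIs were kept. Predicted doublets (scanpy 1.11.5, Scrublet) were kept. Members were summed per mouse and CD24 state (Otsu threshold on log(1 + antibody UMIs)) and tested with edgeR 4.0.16 in R 4.3.3 (TMM, filterByExpr, quasi-likelihood F test, two-sided, Benjamini-Hochberg over all genes tested, mouse as block); DESeq2 1.42.0 was an alternative. On simulated data with 200 genes changed by a log2 of 2 among 10332, 100% were recovered, and 5.66% of calls were false. The simulation used 1 fixed dispersion for all genes, changed only better expressed genes and had no spread between cells. It therefore gives no measure for smaller differences or for genes held by few cells. Age and maturity were described with log2 (CPM + 5) over genes with at least 30 UMIs, without a test. Intervals are exact binomial or exact Poisson at 95%. The members and the 31 gene lists were chosen with earlier results of these data known. Named genes are list members, or the 10 largest differences each way: past the threshold with 1 sign in both mice for CD24, and, for age and maturity, found in at least 5% of cells with at most 20% of UMIs in 1 cell of the higher mouse. Alternatives covered the rule, the mitochondrial limit, doublets, thinning to 5000 UMIs, the CD24 threshold, normalization and filters. No promoter or protein sequence bears on the results, so none is printed.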

Additional observations from a re-analysis of the deposited data

Results flagged for a closer look

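Ecm1 differed between ages in opposite directions in the members and in mature osteoblast-rule cells. The log2 difference of old minus young was 1.30 in members and -0.67 in mature cells. Myh11, a smooth muscle myosin, differed by -1.52 in members and 0.51 in mature cells, on few UMIs: young members had 46 and old members 1, with 45.7% of the young ones in 1 cell, and mature cells had 0 and 8. Without that cell its difference in members was -0.998, and that of Ecm1 without its top cell was 1.24. These 2 genes were picked out of 36 genes past 2-fold in members because mature cells moved the other way by at least 0.50. The difference between the cell sets was not tested, since each age is 1 mouse.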

How the results depend on the processing

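The member share was 5.21% and 4.25% (young, old) with 2 or more of the 6 genes, 3.13% and 2.34% with 4 or more, 4.09% and 3.01% with no mature gene, and 2.86% in the old mouse with the rule read at 5000 UMIs. The young CD24+ share was 23.7% with a mixture threshold and 24.2% per RNA UMI. CD24 calls numbered 103, against 180 at a 10% mitochondrial limit, 233 and 33 with 2 or 4 rule genes, 160 with the threshold per RNA UMI, 50 without erythroid-RNA members (chosen after seeing the data, as the next was), 325 split within 4 bins of depth, 194 with RLE size factors, 206 without a filter, 16 with DESeq2, and 14 with no replicate block; the causes were not tested. Of 74 named genes, DESeq2 lost 57, the fit without the block lost 62, and the rule of 4 genes lost 47. Signs turned per RNA UMI for Acta2 (-0.22), C1qtnf3 (-0.90), Col12a1 (-0.088), Loxl2 (-0.060), Lrrc15 (-0.082), Prss35 (-0.13) and Stmn1 (-0.80); at the median split for Angptl7 (0.84), Cilp (1.26), Col4a1 (0.0013) and Myoc (1.08); within bins of depth for Angptl7 (1.42); and without erythroid-RNA members for Hba-a1 (-0.60), Hmgb2 (-0.15), Mki67 (-0.37) and Rrm2 (-0.61). Leaving out a mouse leaves no residual degree of freedom, so only values of log2 (CPM + 5) remain. Of these, 105 lay more than 1 SE from the main difference and 43 did not. No named gene past the threshold changed sign, but the genes named for the largest differences were required to have 1 sign in both mice. With age, genes higher in old members numbered 102 with 4 rule genes, 137 with 1 CPM added 36 at 100 UMIs and 22 without the top cell of each gene (chosen after seeing the data), and lower ones 148 with 1 CPM added and 28 at 100 UMIs; S100a9 turned to -3.18 with 2 rule genes, Ccl7 to 0.075 without doublets and Hba-a2 to -1.21 without its top cell. Against mature cells, 1083 genes were higher with 1 CPM added. For genes past the threshold in the main setting, the other values kept their sign and their side of it, or lost the call with the same sign. Among named genes not past it, 4 CD24 values and 1 age value passed it in an alternative. With 1 mouse per age, age cannot be told apart from the animal or the library.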
